A study of Mus musculus with 6 samples.

Results

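The genes described here are 10 components of the enzymes that make superoxide, hydrogen peroxide or nitric oxide in the intestine: Duox2, Duoxa2, Duoxa1, Nox1, Noxa1, Noxo1, Cyba, Cybb, Ncf1 and Nos2. They were taken by gene symbol from the 20312 rows of the deposited table, and all 10 were found there. RNA sequencing had been run on intestine of mice aged 5 months whose strain is given as 129, with 3 libraries from Apc min/+;Sirt7KO mice (genotype Apc min/+; Sirt7 -/-, called knockout below) and 3 from Apc min/+ mice (called control). Both groups carried the Apc min allele, a truncating mutation of the negative regulator of Wnt signalling that gives rise to intestinal adenomas, so that no wild-type intestine was compared. The knockout lacked Sirt7, a nuclear deacylase of the sirtuin family, and the labels name no promoter or cell type that would limit its loss. The segment of intestine, the tumour content and the animal behind each library are not given, so that p-values speak only of the scatter among these libraries, part or all of which may be technical.

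NADPH oxidases pass electrons across a membrane to oxygen. Duox2 makes hydrogen peroxide at the apical surface of the gut epithelium and reaches that surface only with its maturation factor Duoxa2. Nox1 makes superoxide in epithelial cells together with the membrane partner Cyba, the organizer Noxo1, the activator Noxa1 and the GTPase Rac1. Cybb is the catalytic subunit of the phagocyte oxidase, which shares Cyba and is switched on by cytosolic subunits that include Ncf1, Ncf4 and Rac2. Nos2, the inducible nitric oxide synthase, makes nitric oxide from arginine in inflamed epithelium and in activated macrophages.

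Values are normalized reads, that is read counts divided by 1 size factor per library by the authors, and a level is given as mean ± SD over 3 libraries. Depth lay between 24987313 and 29603348 recovered reads per library. Sirt7 stood at 240.4, 224 and 219 in knockout and at 2157, 2118 and 2244 in control libraries. Genes were tested with limma on log2(value + 1), and a gene passed at a Benjamini-Hochberg adjusted p under 0.05. Of 16577 genes tested, 62.5% passed, 31.6% higher and 30.9% lower in knockout, so that passing alone sets no gene apart in this comparison. Genes of the intestinal epithelium such as Vil1 (57699 ± 1010 in knockout, 85763 ± 1884 in control) and Cdx2 (2118 ± 142 in knockout, 2598 ± 145 in control) were abundant in both groups. The gastric mucosa genes Gkn3 (8051 ± 588 in knockout, 15.9 ± 1.34 in control) and Muc6 (10122 ± 571 in knockout, 1.36 ± 1.18 in control) were abundant in knockout libraries, and their bearing on the genes described here was not tested.

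Duox2 and Duoxa2 are neighbours on chromosome 2 that point away from each other. Duox2 lies at chr2:122279247-122298449 on the minus strand and Duoxa2 at chr2:122298900-122302885 on the plus strand (GENCODE M21, GRCm38), with 450 bases between them. The RefSeq starts behind the promoter windows lie 673 bases apart. Their windows are shown because both genes moved together, and that of Nox1 because its log2 difference was the largest in size among the 9 members tested. The Nox1 window belongs to a start inside its longest GENCODE model (chrX:134086421-134221956). Each window runs from 250 bases before to 50 after the annotated start (RefSeq, GRCm38.p6), written 5′ to 3′ on the strand of the gene, and capitals mark letters that match a searched motif.
Duox2, chr2:122298178-122298477, minus strand: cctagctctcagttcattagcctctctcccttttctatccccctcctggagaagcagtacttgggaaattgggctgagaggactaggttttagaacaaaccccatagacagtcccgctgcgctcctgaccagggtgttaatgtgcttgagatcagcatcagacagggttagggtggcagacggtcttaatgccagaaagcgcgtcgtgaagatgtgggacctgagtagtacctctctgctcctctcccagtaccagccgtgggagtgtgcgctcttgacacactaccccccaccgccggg
Duoxa2, chr2:122298650-122298949, plus strand: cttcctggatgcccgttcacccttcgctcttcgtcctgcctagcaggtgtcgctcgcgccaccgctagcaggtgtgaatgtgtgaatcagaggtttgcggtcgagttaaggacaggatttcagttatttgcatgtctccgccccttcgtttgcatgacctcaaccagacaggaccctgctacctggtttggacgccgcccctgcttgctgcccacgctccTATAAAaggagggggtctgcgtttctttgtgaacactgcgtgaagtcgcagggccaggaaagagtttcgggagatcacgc
Nox1, chrX:134111805-134112104, minus strand: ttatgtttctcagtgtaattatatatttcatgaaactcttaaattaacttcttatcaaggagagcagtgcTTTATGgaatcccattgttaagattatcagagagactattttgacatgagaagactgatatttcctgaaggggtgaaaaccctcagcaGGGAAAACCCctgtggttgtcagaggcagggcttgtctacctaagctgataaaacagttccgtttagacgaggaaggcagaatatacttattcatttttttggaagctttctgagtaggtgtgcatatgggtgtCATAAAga
The capitals in the Duoxa2 window are a TATA box (TATAAA) that begins 30 bases before the start. In the Nox1 window, GGGAAAACCC at 92 bases before the start matches the kappa B letters (GGGA, then NNNN, then CC), and the CDX letters TTTATG are found at 180 bases before the start and, on the opposite strand, 43 bases after it.

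Windows were at hand for 9 of the 10 genes, all but Nos2. The motifs were searched on both strands, and the letters of none of them overlapped in the member windows. The kappa B letters were found in 5 of the 9 windows (Nox1, Noxa1, Cyba, Cybb and Ncf1), against 20.7% of 32851 RefSeq windows of the same length. These letters leave the NNNN positions free, so a match need not be a kappa B site, and binding was not tested. The TATA letters were found in the Duoxa2 window alone of the 9, against 13.6% of all windows, and the STAT letters TTCNNNGAA in that of Ncf1 alone, against 8.30%. The CDX letters were held by the Nox1 window alone of the 9, against 11.9%. The TCF/LEF letters CTTTGAT (3.73% of all windows) and the E box CACGTG (7.15%) were found in none of the 9. The 3 windows of Duox2, Duoxa1 and Noxo1 held none of the 6 motifs.

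Duox2 and its maturation factor Duoxa2 were both higher in knockout, by 2.90 and 3.30 times. Duox2 had 17456, 14016 and 13823 normalized reads in knockout libraries, against 5103, 5136 and 5362 in control libraries. The lowest knockout library lay above the highest control library, and the first knockout library stood above the other two. The mean was 15098 ± 2044 in knockout and 5200.4 ± 141 in control, and the log2 difference was 1.53 ± 0.08 (SE, limma adjusted p = 9.18e-08).

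Duoxa2 had 4243, 3604 and 3545 normalized reads in knockout libraries, against 1134, 1104 and 1213 in control libraries. Again all knockout libraries lay above all control libraries, with the first knockout library highest. The log2 difference was 1.72 ± 0.06 (limma adjusted p = 5.89e-16).

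Duoxa1, the maturation factor paired with Duox1, was at the edge of detection. It had 10.8, 3.03 and 7.63 normalized reads in knockout libraries, against 0, 1.07 and 2.01 in control libraries. These are 23 reads in all knockout libraries and 3 in all control libraries, a ratio of 7.05 with an exact 95% interval of 2.13 to 36.7 that covers counting error only. It was too low for the filter (10 normalized reads or more in 3 or more libraries) and was therefore not tested with the other 9. Without the filter its limma adjusted p was 0.020, and in the authors' deposited table its adjusted p is 0.0491. Duoxa1 shares 682 annotated exon bases with Duoxa2 on the opposite strand, and without a stated strand setting reads of the pair cannot be told apart there.

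**Figure D1:**
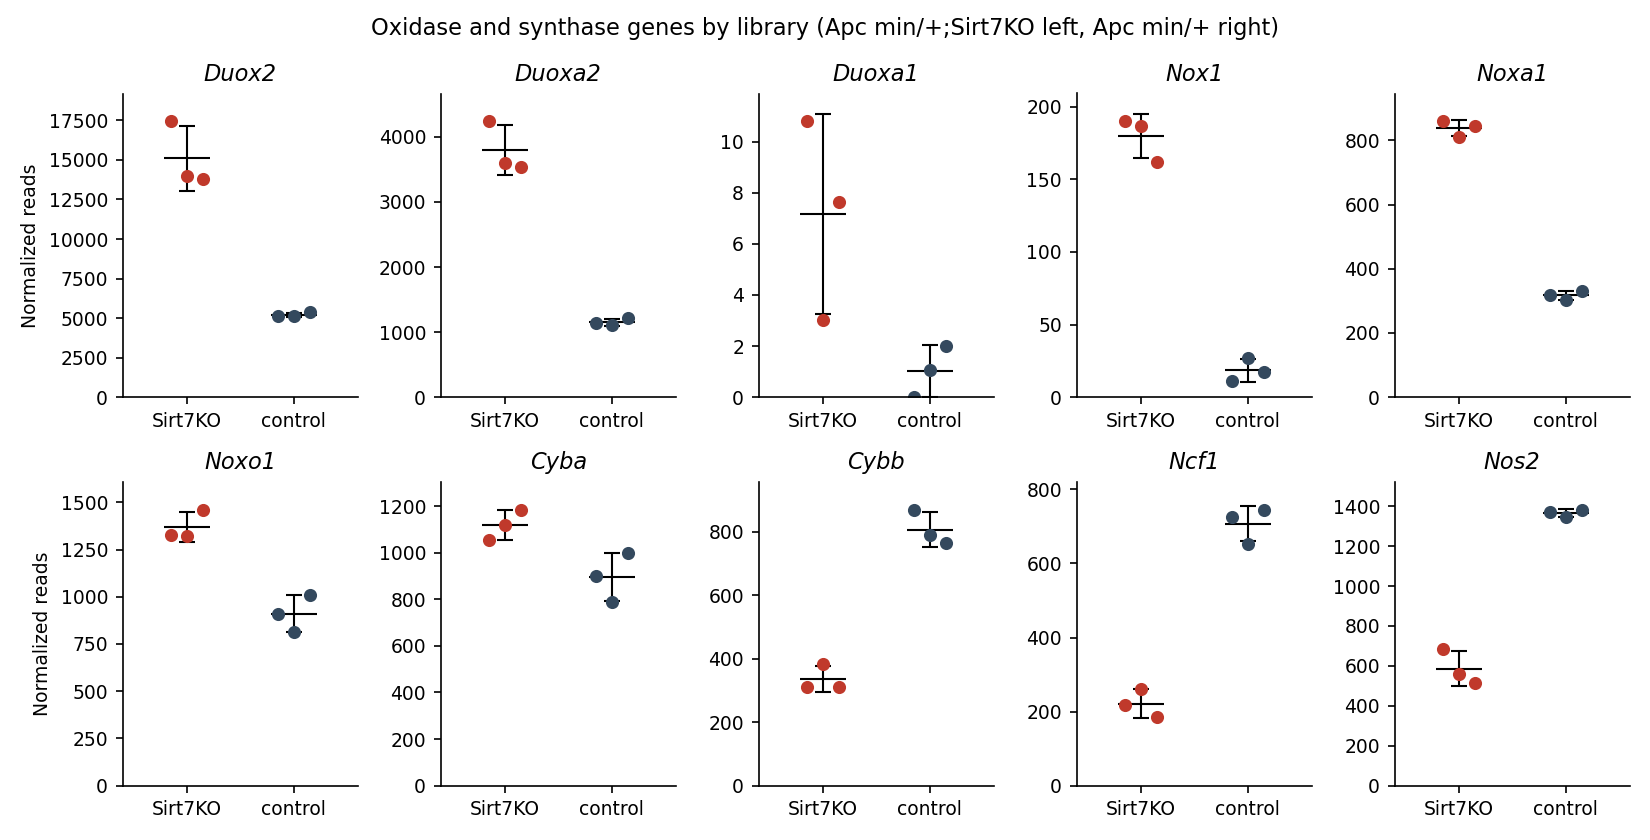
Normalized reads (vertical axis, from 0) of the 10 genes in each of the 3 knockout libraries (red, left) and 3 control libraries (dark, right), with the mean and SD as black bars. The groups do not overlap for any of the 10 genes, nor for 66.5% of all tested genes. For Duoxa1, which was not tested, this rests on 3 reads in the second knockout library and 2 in the third control library. Cybb, Ncf1 and Nos2 lie lower in knockout and the other 7 higher.

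Nox1, the catalytic subunit of the epithelial superoxide-forming oxidase, was low in control and about 10 times as high in knockout. It had 190.0, 187 and 162 normalized reads in knockout libraries, against 11.4, 26.7 and 17.1 in control libraries. The mean was 179.6 ± 15.2 in knockout and 18.4 ± 7.76 in control, a ratio of 9.76, and the log2 difference was 3.29 ± 0.26 (limma adjusted p = 2.49e-10). This was the largest change of the 9 genes tested, and it ranked 297 from the highest among the 16577 tested genes. Nox1 shares 399 annotated exon bases with Cstf2, a cleavage stimulation factor gene on the opposite strand, which stood at 1373 ± 26.1 in knockout and 891 ± 20.1 in control. Since Cstf2 was far above Nox1 and the strand setting is not given, the value of Nox1 is uncertain.

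Noxa1 activates Nox1. It had 860.0, 809.7 and 845 normalized reads in knockout libraries, against 317, 302 and 331 in control libraries. No knockout library came near the control range. The ratio of means was 2.65 and the log2 difference 1.40 ± 0.08 (limma adjusted p = 6.84e-13). Its neighbour Entpd8, with which it shares 50 exon bases, went the other way (5340.2 ± 246 in knockout, 8518 ± 189 in control, log2 difference -0.67, limma adjusted p = 2.73e-12).

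Noxo1 holds the Nox1 complex together at the membrane. It had 1325, 1321 and 1461 normalized reads in knockout libraries, against 909.5, 815 and 1008 in control libraries. The groups did not overlap, and the ratio of means was 1.503 (log2 difference 0.59 ± 0.07, limma adjusted p = 2.35e-07). Of its 3013 annotated exon bases, 2122 are shared with Tbl3, a ribosome assembly gene on the opposite strand. Tbl3 stood at 846 ± 20.5 in knockout and 592 ± 32.2 in control (log2 difference 0.52, limma adjusted p = 1.52e-06). The value of Noxo1 is therefore uncertain, since the strand setting of the counting is not given.

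Cyba, the membrane partner that Nox1 and Cybb share, changed least. It had 1054, 1119 and 1185 normalized reads in knockout libraries, against 898, 789.8 and 998 in control libraries. The lowest knockout and the highest control library were close. The ratio of means was 1.25 and the log2 difference 0.33 ± 0.08 (limma adjusted p = 0.000756).

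Cybb and Ncf1 of the phagocyte oxidase were lower in knockout. Cybb had 312, 382 and 311 normalized reads in knockout libraries, against 870.3, 789 and 763 in control libraries. No knockout library came near the control range, and the second knockout library was the highest of its group. The mean was 335 ± 40.9 in knockout and 807 ± 55.8 in control, so that 41.5% of the control level remained (log2 difference -1.27 ± 0.09, limma adjusted p = 3.68e-11).

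Ncf1, the organizer that carries the cytosolic subunits to Cybb, had 219, 261 and 185 normalized reads in knockout libraries, against 725, 653 and 745 in control libraries. No knockout library came near the control range, and the level fell to 31.3% of the control level (log2 difference -1.68 ± 0.11, limma adjusted p = 9.19e-12). Ncf1 shares 408 exon bases with Gtf2ird2 on the opposite strand, which stood at 238 ± 27.6 in knockout and 192 ± 14.96 in control, and with no strand setting given the value of Ncf1 is uncertain. In whole tissue, fewer cells of a type and less RNA per cell cannot be told apart.

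Nos2 was also lower in knockout. It had 686, 559 and 515 normalized reads in knockout libraries, against 1373, 1343 and 1383 in control libraries. The control libraries were nearly equal, and the first knockout library was the highest of its group, as it was for Duox2 and Duoxa2. The mean was 587 ± 88.9 in knockout and 1366 ± 20.6 in control, so that 42.9% remained (log2 difference -1.23 ± 0.08, limma adjusted p = 2.49e-11). Nos2 lies at chr11:78920787-78960254 on the plus strand (GENCODE M21, GRCm38), and no annotated gene overlaps it or lies within 2000 bases.

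Of the 9 genes tested, 6 passed as higher and 3 as lower in knockout. A share of 62.5% of all tested genes passed, and the groups did not overlap for 66.5% of them, so the counts say little by themselves. By direction, the groups did not overlap for 33.5% of all tested genes as higher and for 33.0% as lower in knockout. In size, 7 of the 9 passed with a log2 difference over 1 in either direction, against 16.6% of all tested genes (9.77% higher and 6.86% lower). The median absolute log2 difference was 1.40 over the 9 genes and 0.39 over all tested genes. An exact permutation test of 3 against 3 libraries cannot go below 0.1 for any of the 9. The members were chosen with earlier results of these data known, so the contrasts in size are descriptive only.

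**Figure D2:**
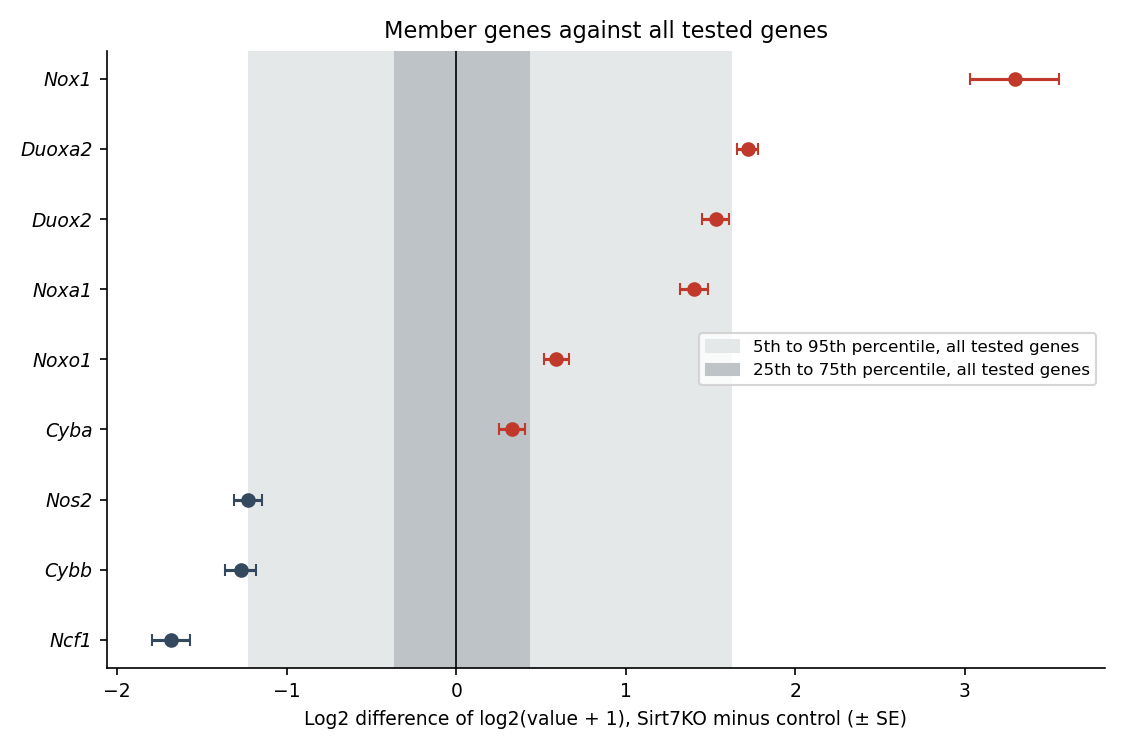
Log2 difference of log2(value + 1), knockout minus control, with its SE (horizontal axis) for the 9 genes tested. The grey bands hold the middle 50% and 90% of all 16577 tested genes. Nox1 (3.29) and Duoxa2 (1.72) lie above the 95th percentile of 1.62, Ncf1 (-1.68), Cybb (-1.27) and Nos2 (-1.23) lie below the 5th percentile of -1.22, and Cyba (0.33) lies inside the middle band.

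Set against annotated exon length, the order of the levels differed between the genotypes. In knockout, Duoxa2 (2385 ± 243 normalized reads per kb) and Duox2 (2230 ± 302) came first with overlapping ranges, followed by Cyba (1077 ± 62.7), Noxa1 (518 ± 16.0), Noxo1 (454 ± 26.5) and Nos2 (133 ± 20.2). Ncf1 (60.5 ± 10.4), Cybb (57.7 ± 7.05) and Nox1 (54.3 ± 4.59) followed, and neighbours among these 3 were not separated beyond their ranges. In control, Cyba (862 ± 100), Duox2 (768 ± 20.8) and Duoxa2 (722 ± 35.3 normalized reads per kb) came first with neighbouring ranges that overlapped. Nos2 (309.7 ± 4.66) and Noxo1 (302 ± 32.0) overlapped, as did Noxa1 (196 ± 8.94) and Ncf1 (193 ± 13.2), and Cybb (139 ± 9.61) and Nox1 (5.56 ± 2.35) came below. Duoxa1 was last in both groups, at 1.80 ± 0.98 in knockout and 0.26 ± 0.25 in control. The lengths include exon bases shared with overlapping genes, among them 2122 for Noxo1 and 682 for Duoxa2. With no strand setting given, the places of such genes in the order are uncertain.

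The balance between partners was compared within each library, where scaling between libraries plays no part. For 15 such ratios the exact permutation test over libraries was run, two-sided, with 0.1 as the smallest p it can give. Duoxa2 kept close to Duox2: there were 0.243, 0.257 and 0.256 Duoxa2 reads per Duox2 read in knockout libraries, against 0.222, 0.215 and 0.226 in control libraries (log2 difference of the ratio 0.19, exact permutation p = 0.1, adjusted p = 0.107). The shift is small beside the change of either gene, although the groups did not overlap. For Duoxa1 to Duoxa2 the groups overlapped (exact permutation p = 0.5).

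The ratios to Nox1 differed by more. There were 6.97, 7.08 and 9.01 Noxo1 reads per Nox1 read in knockout libraries, against 80.1, 30.5 and 58.9 in control libraries. Noxa1 reads per Nox1 read were 4.53, 4.34 and 5.21 in knockout libraries, against 27.9, 11.3 and 19.4 in control libraries. Reads of the organizer and the activator thus outnumbered those of the catalytic subunit in all 6 libraries, and by less in knockout. The spread in control comes with 11, 25 and 17 Nox1 reads in those libraries. Cyba reads per Nox1 read averaged 6.29 ± 0.91 in knockout and 55.6 ± 24.9 in control. All 3 ratios had an exact permutation p of 0.1 (adjusted p = 0.107).

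The ratios of the phagocyte subunits to each other, to their shared partner and to macrophage markers were compared as well. Cyba reads per Cybb read were 3.38, 2.93 and 3.81 in knockout libraries, against 1.03, 1.00 and 1.31 in control libraries. Ncf1 reads per Cybb read were 0.702, 0.683 and 0.595 in knockout libraries, against 0.833, 0.828 and 0.976 in control libraries. Relative to the summed macrophage and monocyte markers, Cybb averaged 0.0575 ± 0.0069 in knockout and 0.0829 ± 0.0068 in control, and Ncf1 averaged 0.0381 ± 0.0066 in knockout and 0.0727 ± 0.0062 in control. Relative to the summed B lymphocyte markers, Cybb went the other way, averaging 0.537 ± 0.116 in knockout and 0.121 ± 0.015 in control. The groups did not overlap in any of these 5 ratios, and each had an exact permutation p of 0.1 (adjusted p = 0.107). Lyz2 made up a large part of the macrophage and monocyte sum (2852 ± 26.4 normalized reads in knockout, 5308 ± 138 in control). Relative to that sum without Lyz2, Cybb averaged 0.113 ± 0.013 in knockout and 0.182 ± 0.016 in control.

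**Figure D3:**
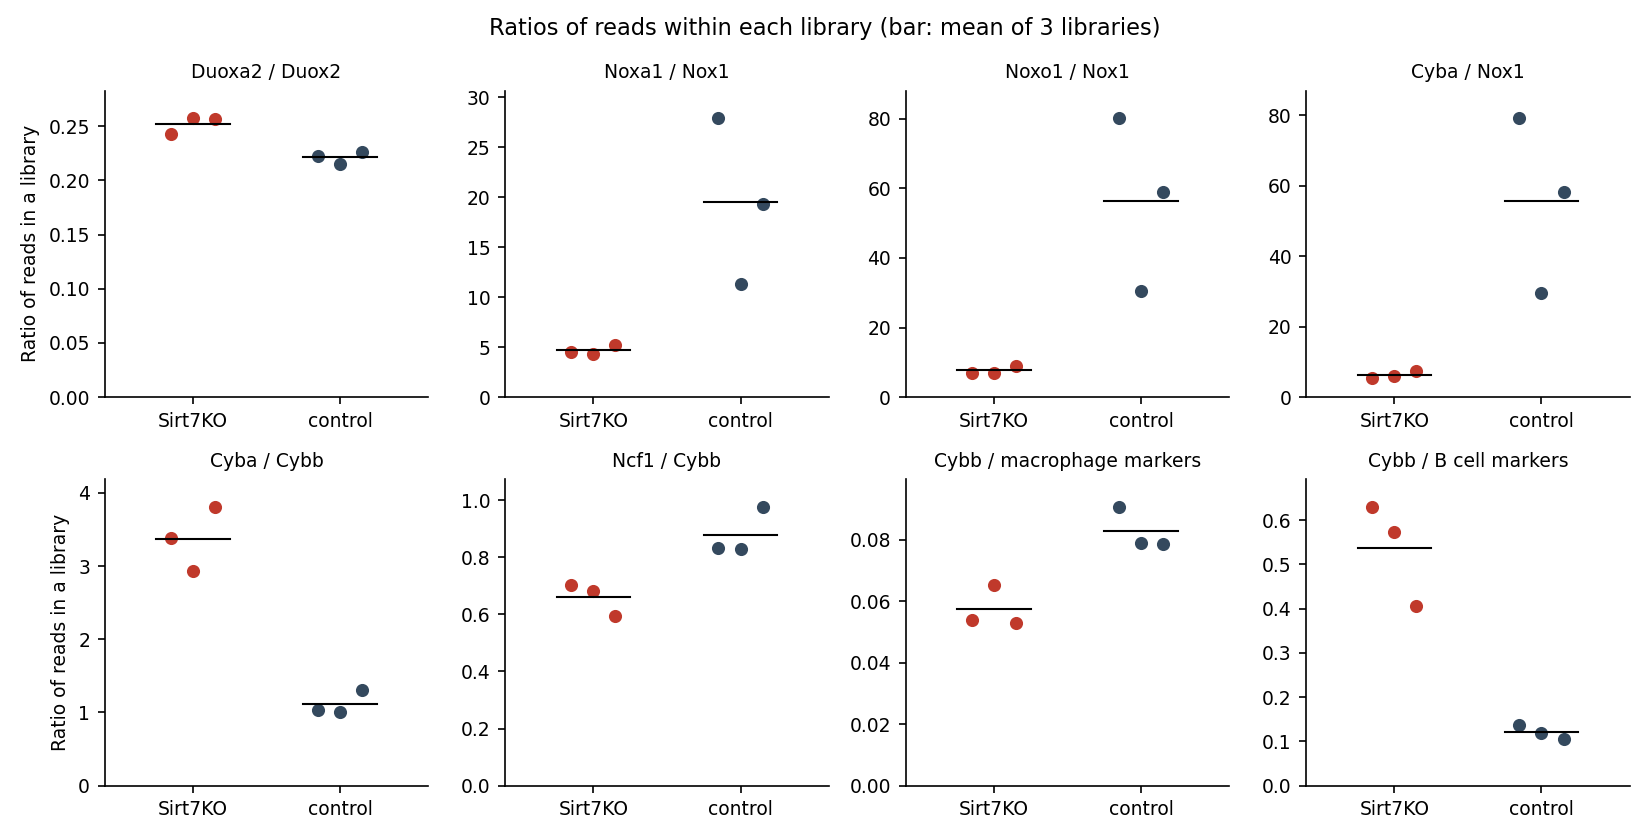
Ratio of reads of partner genes within each of the 3 knockout libraries (red, left) and 3 control libraries (dark, right), with the mean as a bar, on linear axes from 0. Duoxa2 per Duox2 moves little (0.252 in knockout, 0.221 in control on average), while Noxo1 per Nox1 averages 7.69 in knockout and 56.5 in control.

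A sum of epithelial markers was set beside the epithelial genes in the same way. The sum holds genes that moved in both directions, so it is no plain measure of epithelial content. The summed pan-epithelial markers lay between 286576 and 290353 normalized reads in knockout libraries, against 339089 to 346009 in control libraries. Of these 8 markers 3 passed as higher and 4 as lower in knockout, or 5 and 2 under quantile normalization. Krt18 was higher (15581 ± 72.0 in knockout, 4730.1 ± 127 in control) and Krt20, a keratin of mature villus cells, lower (47628 ± 1364 in knockout, 92886 ± 627 in control). Per read of the summed markers, Duox2 stood at 0.0523 ± 0.0075 in knockout and 0.0151 ± 0.0003 in control, and Nos2 at 0.00203 ± 0.00032 in knockout and 0.00398 ± 0.00008 in control (exact permutation p = 0.1 each, adjusted p = 0.107). Per read of the summed macrophage and monocyte markers, Nos2 averaged 0.101 ± 0.016 in knockout and 0.140 ± 0.005 in control. The log2 difference was -0.49 for this ratio and -0.98 for that to the epithelial markers. Markers of absorptive enterocytes were lower (10 of 10 tested, median log2 difference -1.02, but Alpi was higher under quantile normalization and did not pass without any 1 control library, at limma adjusted p of 0.0513 to 0.155) and those of crypt base stem cells higher (8 of 8, median 2.02). The part of either in the changes of Duox2, Nox1 or Nos2 was not tested.

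Among the other oxidase and synthase components, the fixed list held 10 genes, of which 8 were tested. Of these 2 passed as higher and 4 as lower in knockout, with a median log2 difference of -0.28 against 0.01 over all tested genes. Rac2 and Ncf4 were among the lower. Rac2, the GTPase of the phagocyte oxidase, had 379, 397 and 362 normalized reads in knockout libraries, against 1335, 1242 and 1315 in control libraries (log2 difference -1.77 ± 0.07, limma adjusted p = 1.36e-15). Ncf4, another cytosolic subunit, stood at 97.6 ± 6.62 in knockout and 323 ± 24.0 in control (log2 difference -1.71, limma adjusted p = 1.30e-10). Thus Cybb, Ncf1, Ncf4 and Rac2 were lower, while Cyba was higher. Rac1, which also serves Nox1, was lower by little (8756 ± 35.1 in knockout, 11106 ± 437 in control, log2 difference -0.34) and did not pass under quantile normalization (limma adjusted p = 0.072).

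The oxidases Duox1 and Nox4 were low but higher in knockout. They are the genes counted as higher in that list. Both reached 10 normalized reads in knockout libraries alone, so the filter fixed their direction. Duox1, the second dual oxidase, had 18.0, 23.2 and 14.3 normalized reads in knockout libraries, against 6.19, 5.34 and 4.03 in control libraries (log2 difference 1.65 ± 0.49, limma adjusted p = 0.00592). Nox4 stood at 17.6 ± 7.37 in knockout and 4.79 ± 2.30 in control (log2 difference 1.70, limma adjusted p = 0.0104), and did not pass without the first knockout library (log2 difference 1.41, limma adjusted p = 0.077). The constitutive synthases did not pass: Nos1 stood at 82.0 ± 21.7 in knockout and 81.0 ± 7.54 in control, and Nos3 at 55.6 ± 2.96 in knockout and 65.4 ± 8.90 in control. Nox3 and Cybc1 were not analysed here.

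Lactoperoxidase, a secreted enzyme that uses hydrogen peroxide to oxidize thiocyanate, had 1 or 2 reads in each control library. Lpo had 91.9, 75.6 and 114 normalized reads in knockout libraries, against 1.03, 1.07 and 2.01 in control libraries (log2 difference 5.32 ± 0.43, limma adjusted p = 2.44e-10). Lpo met the filter through the knockout libraries alone, so the filter fixed its direction. Enzymes that remove superoxide and hydrogen peroxide moved less. Of 14 tested, 2 passed as higher and 7 as lower in knockout (median log2 difference -0.12), and quantile normalization gave 6 higher with 6 lower. Catalase (Cat, 6037 ± 426 in knockout, 9833 ± 141 in control), Gpx4 (6080.0 ± 645 in knockout, 11762 ± 331 in control) and Prdx5 (7064 ± 641 in knockout, 9748 ± 322 in control) were lower. Prdx4, the peroxiredoxin of the endoplasmic reticulum, was higher (780.3 ± 15.6 in knockout, 455 ± 20.4 in control).

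Genes that set the supply of arginine, the cofactor and the inhibitors of nitric oxide synthases moved in both directions. Of 11 tested, 5 passed as higher and 2 as lower in knockout (median log2 difference 0.13). Ddah1, which breaks down methylated arginines that inhibit the synthases, had 377, 295 and 297 normalized reads in knockout libraries, against 46.5, 22.4 and 38.3 in control libraries (log2 difference 3.19 ± 0.22, limma adjusted p = 2.94e-11). Gch1, the first enzyme of tetrahydrobiopterin synthesis, and the arginine transporter Slc7a1 were higher (log2 differences 0.62 and 0.58). The arginases, which compete for the same substrate, went both ways. The mitochondrial Arg2 stood at 11201 ± 736 in knockout and 17371 ± 242 in control. The cytosolic Arg1 had 99.1, 82.7 and 77.3 normalized reads in knockout libraries, against 2.06, 3.21 and 20.1 in control libraries, and passed as higher (limma adjusted p = 3.98e-05). Ass1 was not analysed here.

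Cytokines, receptor subunits and transcription factors known to act upstream of Duox2, Nox1 or Nos2 moved in both directions or were too low to test. Of 21 fixed genes 15 were tested, and 2 passed as higher and 8 as lower in knockout (median log2 difference -0.21). Over all tested genes, 31.6% passed as higher and 30.9% as lower. Apart from the cytokine Il18, the genes called lower were receptor subunits and transcription factors. Interleukin 1 beta (Il1b) was higher, with 315, 300.5 and 249 normalized reads in knockout libraries, against 43.4, 36.3 and 78.6 in control libraries (log2 difference 2.50 ± 0.22, limma adjusted p = 7.74e-09). Tnf, the other gene called higher, stood at 85.4 ± 17.7 in knockout and 56.6 ± 20.4 in control (limma adjusted p = 0.0386), and did not pass without knockout library 1, knockout library 3 or control library 3 (limma adjusted p = 0.0817, 0.167 and 0.271). Irf1, a transcription factor that acts on the Nos2 promoter, was lower (5751 ± 42.0 in knockout, 8220 ± 121 in control), as were Il18 and the receptor subunit Il10rb (log2 differences -0.73 and -0.82). Il17a had 24.3, 12.1 and 8.58 normalized reads in knockout libraries, against 18.6, 11.8 and 14.1 in control libraries, and did not pass. Il17f, Il22 and Ifng, cytokines of T and innate lymphocytes, were below the filter, with at most 2.02 normalized reads in any knockout library and at most 12.8 in any control library.

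**Figure D4:**
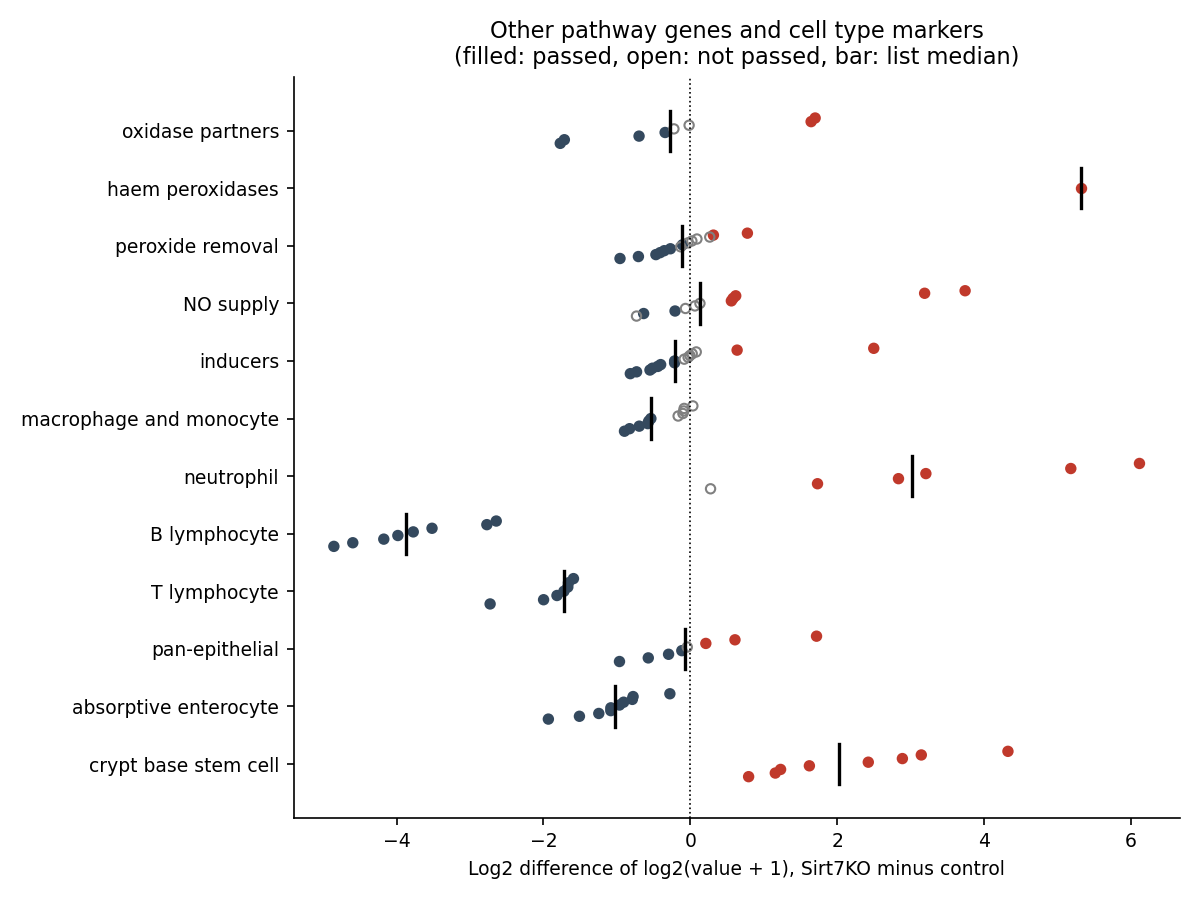
Log2 difference, knockout minus control (horizontal axis), of every tested gene of 12 fixed lists, filled where the gene passed, open where it did not, with the list median as a black bar. Neutrophil markers lie to the right (median 3.02), B and T lymphocyte markers to the left (-3.88 and -1.72), and enzymes of peroxide removal near 0 (-0.12). The neutrophil markers Ly6g, S100a8 and S100a9 reached 10 normalized reads in knockout libraries alone, so the filter fixed their direction, as it did for Lpo.

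Markers of white blood cells, among them cells that carry the phagocyte oxidase, moved in different directions. Of 11 macrophage and monocyte markers tested, 6 were lower in knockout and 5 did not pass (median log2 difference -0.54), with summed levels of 5775 to 5859 in knockout libraries, against 9593 to 9969 in control libraries. Lyz2 and Csf1r were lower (log2 differences -0.90 and -0.83). Of 6 neutrophil markers tested, 5 were higher and Csf3r did not pass (median 3.02), with summed levels of 1501 to 1665 in knockout libraries, against 214 to 249 in control libraries. S100a9 had 113, 144 and 83.9 normalized reads in knockout libraries, against 0, 3.21 and 0 in control libraries, and most of the summed level in knockout was Ltf (1281 ± 56.6 in knockout, 138 ± 14.8 in control). Ly6g, S100a8 and S100a9 reached 10 normalized reads in knockout libraries alone, so the filter fixed their direction. Retnlg, Camp and Mmp8 were below the filter and not tested. Mmp8 had 16.2, 6.05 and 3.82 normalized reads in knockout libraries, against 0 in all control libraries. Retnlg averaged 8.13 ± 4.48 in knockout and 0.36 ± 0.62 in control, and Camp had 0, 0 and 1.91 in knockout libraries, against 0, 4.27 and 5.04 in control libraries. All 8 B lymphocyte markers were lower (median -3.88), with summed levels of 494 to 765 in knockout libraries, against 6354 to 7182 in control libraries, and so were all 7 T lymphocyte markers tested (median -1.72). The part of each cell type in the lower Cybb, Ncf1 and Nos2 was not tested.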

How the data were processed

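RNA was measured in 6 libraries of mouse intestine. The submitters' processing notes name, with no role or order, DESeq2, HTSeq 0.6.1p1, TopHat2 2.1.1, TopHat and FastQC beside the build mm10, and RNA was extracted with Trizol and built into TruSeq libraries, per the labels' protocols. The deposited table holds the authors' normalized signal, which is the read count per gene divided by 1 size factor per library, with no scaling by gene length or to a common sum. It also holds, per the file headers, the authors' mean signal, log2 fold change with its SE, Wald statistic (a score) and p-values. All values (100%) were whole multiples of 1 step per library to within 0.01, so that whole reads were recovered. In the third control and second knockout libraries that step lay close to 1. Rows named by a date (23) were left out.

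Genes that reached 10 normalized reads in 3 or more of the 6 libraries were tested with limma 3.58.1 (trend and robust estimation, R 4.3.3) on log2(value + 1), a scale that understates the change of low genes, with genotype as sole term and Benjamini-Hochberg adjustment. Ratios within a library used recovered reads, with 0.5 added in the test, and p-values were adjusted over all 15. Of these, 6 were chosen after the values were seen. Alternatives were edgeR 4.0.16 and DESeq2 1.42.0 on recovered reads, TMM and quantile normalization, other filters and pseudocounts, limma without robust estimation, a replicate block, and leaving out each library. Every pair of libraries of 1 genotype differed beyond sampling noise (chi-square per gene between 3.79 and 6.94). Intervals describe counting error alone, since no molecular identifiers are stated and reads may repeat a molecule.

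The members, lists and motifs were chosen with earlier results of these data known. Named genes were the 10 members, Sirt7, annotated neighbours within 2000 bases and up to 4 genes per list by smallest p. Genes with no reads in a group were named as well. Others (Cdx2 as a tissue marker, Nox4, Nos1, Nos3, Arg1, Il17a, Il17f, Il22, Ifng, Tnf, Muc6, Csf3r, Retnlg, Camp, Aqp8, Car4, and Alpi, Epcam, Gpx2, Krt8, Prdx1 and Tagln for their sensitivity to processing) were named after their values were seen. Ly6g was named after its values were seen as well. Positions are from GENCODE M21 (GRCm38, also called mm10) and promoters from RefSeq (GRCm38.p6), matched by symbol. One gene counted in a list is not reported here by name.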

Additional observations from a re-analysis of the deposited data

How the results depend on the processing

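Across all alternatives run, 6 of the 9 members tested stayed higher and 3 stayed lower in knockout past the threshold. The largest adjusted p among these 9 was 0.0107, for Cyba without the second control library (log2 difference 0.24). Without the filter, Duoxa1 passed as higher as well (limma adjusted p = 0.020). Leaving out each library in turn gave log2 differences of 1.42 to 1.59 for Duox2, 3.01 to 3.59 for Nox1, -1.37 to -1.22 for Cybb and -1.35 to -1.14 for Nos2, and 9655 to 9851 genes passed, against 10364 with all libraries. The count was 10382 with edgeR, 9888 with DESeq2 and 10221 under quantile normalization. Deviations of libraries with the same replicate number were not correlated (0.00, 0.04 and -0.01), so the numbers were not taken as pairs. With the replicate block 10391 genes passed, and no member's call changed.

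The low genes depended on the amount added before the logarithm. With 10 added, the log2 difference of Duoxa1 was 0.62 in place of 2.01. With 10 reads added to each count, the log2 differences of the ratios were -1.18 for Duoxa1 to Duoxa2 (0.71 before), -1.38 for Noxa1 to Nox1 (-1.93 before), -2.17 for Noxo1 to Nox1 (-2.74 before) and -2.43 for Cyba to Nox1 (-3.00 before). Leaving out 1 library gave 0.06 to 1.16 for Duoxa1 to Duoxa2, -2.26 to -1.63 for Noxa1 to Nox1, -3.12 to -2.44 for Noxo1 to Nox1 and -3.39 to -2.70 for Cyba to Nox1.

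Quantile normalization turned the direction of Alpi (0.19), Epcam (0.28), Gpx2 (0.19), Krt8 (0.56), Prdx1 (0.32) and Tagln (0.15), all list genes. The cause was not tested. Depth limits Duoxa1, with 0 to 2 reads per control library.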

Other observations

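Several genes beside the members moved with them or against them. Mvd, of cholesterol synthesis, ends 670 bases from the start of Cyba and stood at 1065 ± 15.4 normalized reads in knockout and 537 ± 37.2 in control (log2 difference 0.99, limma adjusted p = 3.44e-11). The epithelial cytokine gene Il17c, which lies 1136 bases from the other end of Cyba, had 9.005, 8.07 and 3.82 normalized reads in knockout libraries, against 0, 4.27 and 4.03 in control libraries, and was below the filter. Gfer, which lies 77 bases from Noxo1, was higher in knockout (350.04 ± 18.6 in knockout, 242 ± 18.8 in control). Inside the longest annotated model of Nox1, Xkrx was lower in knockout (16.7 ± 3.98 in knockout, 38.0 ± 7.55 in control, log2 difference -1.15, limma adjusted p = 0.00537), and Trmt2b, 382 bases beyond that model, was lower as well (962 ± 65.9 in knockout, 1219 ± 54.7 in control).

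Lists of regional genes were also measured. Several gastric mucosa genes, Muc6 among them, reached 10 normalized reads in knockout libraries alone, so the filter fixed their direction. Of 10 gastric mucosa genes tested all 10 were higher in knockout (median log2 difference 7.81), and of 7 colon epithelium genes 3 were higher and 4 lower (median -0.18). Of the 4 lower, Aqp8 (212 ± 60.0 in knockout, 267 ± 7.28 in control, limma adjusted p = 0.0492) did not pass under 11 alternatives, among them DESeq2 (adjusted p = 0.0790), edgeR (0.0622) and each omission of 1 library except the second knockout (0.0699 to 0.364). Car4 (3331 ± 369 in knockout, 3759 ± 80.7 in control) did not pass under quantile normalization (limma adjusted p = 0.706), without the third knockout library (0.113) or without the first control library (0.0610). Genes with no reads in any control library were Lipf, Atp4b and Hoxb13. Lipf, the gastric lipase, had 518, 563 and 659 normalized reads in knockout libraries. Atp4b, a subunit of the gastric proton pump, averaged 3.98 ± 4.64 in knockout, and Hoxb13, a gene of the distal colon, 6.04 ± 2.22, both below the filter and not tested. Smooth muscle and fibroblast genes split, with collagen genes such as Col1a1 (2171 ± 200 in knockout, 643 ± 37.4 in control) higher and Myh11 (11126 ± 487 in knockout, 17519 ± 599 in control) lower. The eosinophil gene Prg2 was lower in knockout (69.3 ± 26.9 in knockout, 196 ± 12.1 in control).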
